A study of Mus musculus with 6 samples.

Results

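Clusters of closely spaced binding regions of the transcription factor MafA were described in MIN6 cells. A MafA region was the union of overlapping peaks of the 2 MafA libraries, with at least 1 peak from each. Neighbouring regions were chained when the gap from the end of one to the start of the next was 12500 bp or less, and chains of 3 or more regions were kept. This gave 1526 clusters, which held 5750 of 25894 MafA regions, or 22.2% (95% Wilson interval 21.7 to 22.7%). A further 6248 regions lay in chains of 2, and 13896 were isolated, with no neighbour inside the gap. The positions of MafA peaks in both libraries chose the clusters, so the number, spacing and MafA signal of their regions are given as a description, with no test.

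MIN6 is an established mouse insulin-secreting line with many properties of pancreatic beta cells. Chromatin was profiled by CUT&RUN, in which an antibody brings a nuclease to its target in permeabilised cells and the cut fragments are sequenced. The 3 groups of 2 libraries differed only in the antibody, which was raised to MafA itself, to the promoter histone mark H3K4me3 (the positive control) or was IgG (the negative control). No cell was given a drug or a genetic change according to the labels, the labels do not say whether the replicates came from separate cultures, and no IgG file was used here.

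MafA is a basic leucine zipper protein that binds MAF recognition elements, among them the C1 element of the insulin promoter, and is a marker of mature beta cells. Genes that define a cell type are often surrounded by many closely spaced enhancers, and stretches of this kind have been called stretch enhancers or super-enhancers. Such a stretch is commonly built by joining sites across a fixed gap, as was done here, although the usual definition also ranks stretches by signal, which the rule above does not.

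Fold enrichment here is the authors' value for a peak, the signal at its summit divided by the background modelled there. MafA peaks numbered 33013 in replicate 1 and 42747 in replicate 2, with a median of 25 and 46 fragments recovered at the summits. H3K4me3 peaks numbered 16020 and 16904, and 15573 H3K4me3 regions were found in both libraries. The labelled cell type was compared with the mark at gene ends. Of 10 beta cell markers, 9 (not Ins1) had H3K4me3 at a gene end, by a margin of 1 kb. So did 3 of 4 alpha cell markers and 0 of 2 delta cell markers. The mark also lay at an end of 12209 of all 21627 protein-coding genes and of 17 of 18 housekeeping genes. Of 21 markers of other pancreatic cells, 5 had the mark, namely the alpha cell genes Gcg, Irx1 and Irx2, the acinar factor gene Bhlha15 and the duct keratin gene Krt7.

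The sequences below show the letters that lie under cluster regions at promoters, the only cluster positions for which sequence was at hand. They come from RefSeq promoter entries of GRCm38.p6, which cover 250 bases before and 50 after a start for 17491 of 21896 protein-coding genes. A total of 521 promoters overlapped a MafA region of a cluster, and 80 of these held the summits of both replicates within the 300 bases. Both strands were searched for TGCTGAC, a half-site of the MAF recognition element, and for TGCNNNNTCAGC, the spaced form found in the insulin C1 element. Of 51 cluster promoters with either pattern, 6 held both summits in the window: Cdk8, Chst8, Gstp1, Prdx2, Shb and Tubb3. This was not a higher share than the 80 of all 521 cluster promoters. Gstp1, Prdx2, Shb and Tubb3 are shown with G6pc2, the listed beta cell gene with the most matches, as the 250 bases before the start, 5′ to 3′ on the gene's strand, with the matched pattern in capitals. They were chosen after their sequences were seen. A promoter entry was at hand for 49 listed beta cell genes, and for 14 of them it overlapped a cluster region. Among all 21262 entries, of which a gene can have several, 521 did. Only G6pc2 and Etv1 of the 14 held either pattern, against 51 of the 521 cluster promoters. Positions below are counted back from the start, with -1 the base before it.
Gstp1 (chr19:4037913-4038162, minus strand): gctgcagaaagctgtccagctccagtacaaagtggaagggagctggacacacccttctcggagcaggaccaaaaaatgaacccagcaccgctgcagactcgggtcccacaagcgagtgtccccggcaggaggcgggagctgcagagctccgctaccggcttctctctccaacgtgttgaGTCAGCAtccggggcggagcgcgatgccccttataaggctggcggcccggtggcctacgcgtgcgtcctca
Prdx2 (chr8:84969372-84969621, plus strand): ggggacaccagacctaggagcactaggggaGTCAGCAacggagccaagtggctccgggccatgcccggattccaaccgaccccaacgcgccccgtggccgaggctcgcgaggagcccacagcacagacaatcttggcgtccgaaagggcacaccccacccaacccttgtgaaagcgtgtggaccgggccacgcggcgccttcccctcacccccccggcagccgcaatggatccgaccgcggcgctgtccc
Shb (chr4:45530829-45531078, minus strand): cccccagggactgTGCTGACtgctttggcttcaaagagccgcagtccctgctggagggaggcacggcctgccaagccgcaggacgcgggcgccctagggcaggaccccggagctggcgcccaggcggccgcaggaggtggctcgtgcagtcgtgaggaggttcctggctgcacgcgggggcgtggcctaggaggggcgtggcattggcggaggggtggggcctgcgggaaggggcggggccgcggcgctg
Tubb3 (chr8:123411303-123411552, plus strand): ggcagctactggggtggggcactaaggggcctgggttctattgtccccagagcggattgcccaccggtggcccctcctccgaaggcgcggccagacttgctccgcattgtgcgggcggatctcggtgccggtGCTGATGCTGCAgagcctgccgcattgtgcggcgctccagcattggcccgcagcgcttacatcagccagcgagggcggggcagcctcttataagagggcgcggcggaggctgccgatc
G6pc2 (chr2:69219699-69219948, plus strand): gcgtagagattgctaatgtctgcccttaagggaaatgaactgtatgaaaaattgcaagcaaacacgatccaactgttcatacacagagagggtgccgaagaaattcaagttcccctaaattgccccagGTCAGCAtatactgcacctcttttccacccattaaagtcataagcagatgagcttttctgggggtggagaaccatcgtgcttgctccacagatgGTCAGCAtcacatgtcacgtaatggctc

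Gstp1 encodes a glutathione S-transferase that detoxifies electrophiles, and its half-site began at -71. This half-site overlapped a match to TGANTCA, the AP-1 pattern counted below. The MafA summits there lay at -115 and -153 in replicates 1 and 2, in a region with fold enrichments of 8.35 and 9.51. Shb encodes an SH2 domain adaptor protein, and its half-site began at -237, with the summits at -245 and -239 and fold enrichments of 10.6 and 11.04. In Prdx2, which encodes a peroxiredoxin that reduces hydrogen peroxide, the half-site began at -220 and the summits lay at -150 and -168. Tubb3, a neuronal beta tubulin gene, held the spaced form, beginning at -118, with the summits at -237 and -241. In Shb the pattern lay next to both summits, whereas in Tubb3 it lay farther from them. G6pc2 encodes an islet-specific glucose-6-phosphatase subunit, and its promoter held 2 half-sites, at -122 and -28. Its summits lay outside the window, at -333 and -329, in a region with fold enrichments of 11.3 and 10.3.

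The half-site occurred in 6.72% of the 521 promoters over a cluster region and in 5.23% of 2277 promoters over an isolated region. It occurred in 2.23% of 8370 promoters that overlapped H3K4me3 and no MafA region, and in 4.30% of all 21262 promoter entries. The spaced form occurred in 3.26%, 2.24%, 0.968% and 1.29% of the same sets. Both patterns were thus most frequent in the cluster set and least frequent in the H3K4me3 set. The AP-1 pattern TGANTCA, which a full MAF recognition element can also contain, occurred in 6.53%, 3.86%, 3.93% and 6.99% of them. The E-box CAGATG occurred in 9.79%, 10.5%, 10.4% and 14.6%, the homeodomain pattern TAATTA in 2.50%, 2.50%, 2.15% and 4.53%, and the forkhead pattern TGTTTAC in 2.30%, 2.85%, 2.26% and 3.01%. For these last 3 patterns the cluster set stood close to the other marked promoters and below all promoters. Base composition differed among the sets, with a mean GC content of 61.1%, 61.3%, 62.8% and 56.2%, and its part in these shares was not tested. Matches describe letters in a window and do not mark bound sites.

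Most clusters were small. The minimum of 3 regions was met exactly by 917 clusters (60.1%), 539 held 4 to 6 regions, 70 held 7 or more, and 15 held 10 or more. Cluster span ran from 3.44 to 102 kb with a median of 16.9 kb. The MafA regions themselves covered a median of 23.1% of that span, so most of a typical cluster was sequence between regions. The 4224 gaps inside clusters had a median of 4641 bp. Gaps of 1 kb or less made up 12.55% of them and gaps of 5 kb or less 53.1%. With regions within 1 kb of each other merged first, 1315 clusters were left. Whether close regions were pieces of a single broad peak was not tested.

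**Figure D1:**
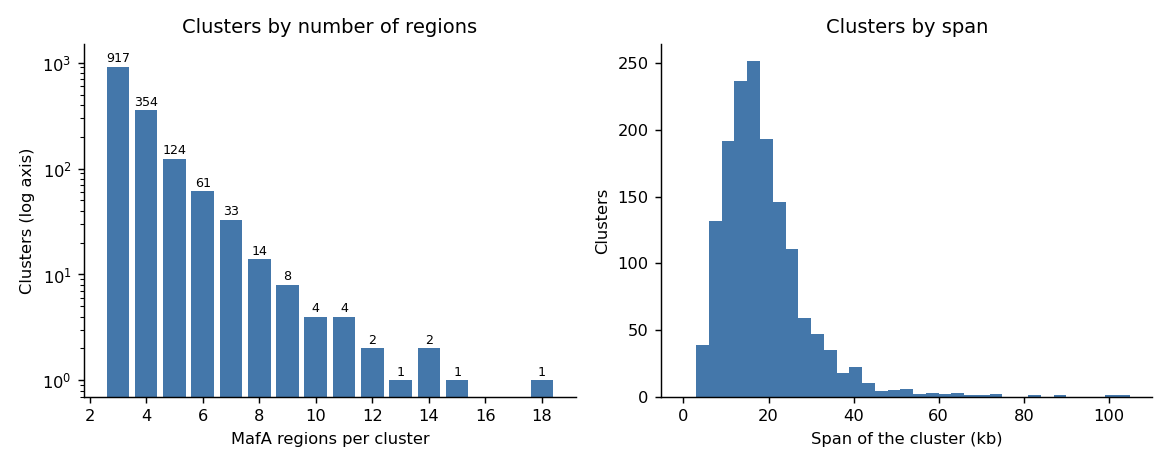
Left, number of clusters (log axis) by the number of MafA regions they hold, with each count printed above its bar. Right, number of clusters by span in kb. The counts fall from 917 clusters of 3 regions to 1 cluster of 18, and most spans lie near the median of 16.9 kb.

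Membership was decided by small distances for some chains. A 4-region cluster 87257 bp from Rybp contained a gap of 12500 bp, the widest permitted, and a 3-region cluster at Abr had one of 12495 bp. Chains at Pde4b and Arrdc4 were held apart by gaps of 12508 and 12517 bp. In all, 113 clusters contained a gap over 12000 bp, and 205 gaps lay up to 500 bp over the limit. A gap of 5 kb gave 583 clusters and one of 25 kb gave 2449, so the number of clusters is tied to the gap.

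The share of MafA regions found in clusters differed along the genome. It was lowest on chromosome 14, at 14.2% of 999 regions, and highest on chromosome 19, at 29.7% of 896 regions. Relative to protein-coding genes, 1147 clusters (75.2%) overlapped at least 1 gene and 637 (41.7%) lay wholly inside 1 gene. In all, 167 overlapped 2 or more genes, and 153 (10.0%) lay over 50 kb from any. A long span meets a gene more readily than a single region, and spans of equal length were not compared. Of single regions, 34.1% in clusters lay outside protein-coding genes and over 1 kb from their ends. This held for 40.5% of isolated regions and 38.7% of all MafA regions. Only 479 clusters (31.4%) had a region within 1 kb of a gene end. Clustered regions were in this respect farther from gene ends than isolated ones, with 11.5% of regions in clusters and 18.2% of isolated ones inside that distance, against 16.1% of all MafA regions.

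The 6 clusters that follow show the forms a cluster took. The cluster with the most regions lay at Mtss1, which encodes an actin-binding scaffold protein of the plasma membrane (chr15:58990523-59092531). Its 18 regions spanned 102 kb, and their fold enrichments summed to 123 in replicate 1 and 147 in replicate 2. The strongest region, with fold enrichments of 25.7 and 32.1, carried 21.5% of the summed fold enrichment, and 1 of the 18 overlapped H3K4me3.

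Abcc8 encodes SUR1, the regulatory subunit of the beta cell ATP-sensitive potassium channel. Its cluster (chr7:46111852-46169321) held 15 regions in 57.5 kb, all inside the gene, and none overlapped H3K4me3. The sums were 125 and 135, and here the signal was spread out. The strongest region, at 16.1 and 18.1, carried 13.2% of the summed fold enrichment, the lowest share of the 1526 clusters.

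Slc2a2 encodes GLUT2, the glucose transporter of rodent beta cells. A chain of 14 regions ran from inside Tnik, a kinase gene, past both ends of Slc2a2 (chr3:28657896-28746597), with sums of 129 and 138. Its 2 strongest regions lay outside both genes, one between Tnik and Slc2a2 with fold enrichments of 19.3 and 25.3, and one beyond Slc2a2 with 22.7 and 22.5. The single H3K4me3 region lay at an end of Slc2a2, under a MafA region with the lower values of 7.54 and 10.5.

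The highest summed fold enrichment of all clusters in replicate 1, 147, and in the mean of both replicates, belonged to 12 regions that began at C2cd4b and ended at C2cd4a (chr9:67758397-67833188). Their sum in replicate 2 was 144, below that at Mtss1. Both genes encode C2 domain proteins of the nucleus that are induced by cytokines, and the human locus is associated with type 2 diabetes. The strongest region, at 28.4 and 25.6, lay between the genes. The weakest 2, with 5.09 and 2.44, and 4.51 and 2.69, lay at C2cd4a, where H3K4me3 was present. H3K4me3 also lay at C2cd4b, where it overlapped MafA regions with 9.86 and 8.81, and with 21.7 and 26.7. In all, 4 of the 12 regions overlapped H3K4me3.

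Mafa itself stood between 2 clusters. A chain of 11 regions inside Zc3h3, a zinc finger protein gene, began 7365 bp from one end of Mafa (chr15:75755687-75818303) and summed to 98.4 and 112. Their strongest region, 34.3 kb into the cluster, had fold enrichments of 22.2 and 32.9, and none of the 11 overlapped H3K4me3. On the other side, a cluster of 4 regions at Rhpn1 ended 3373 bp from Mafa and was far weaker, with sums of 17.0 and 18.6. The Rhpn1 cluster was lost with a gap of 5 kb. No MafA region overlapped the Mafa gene itself.

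G6pc2 was the reverse of Abcc8 with respect to the promoter mark. Its cluster (chr2:69195736-69230859) also covered Spc25, a kinetochore gene, and 7 of its 8 regions overlapped H3K4me3, in 2 H3K4me3 regions. The sums were 56.0 and 54.0, about the same in both libraries. Its regions covered 57.5% of the span, against the median of 23.1% for all clusters. When the peaks of both replicates had to overlap by 50% of each, no cluster was left at G6pc2.

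**Figure D2:**
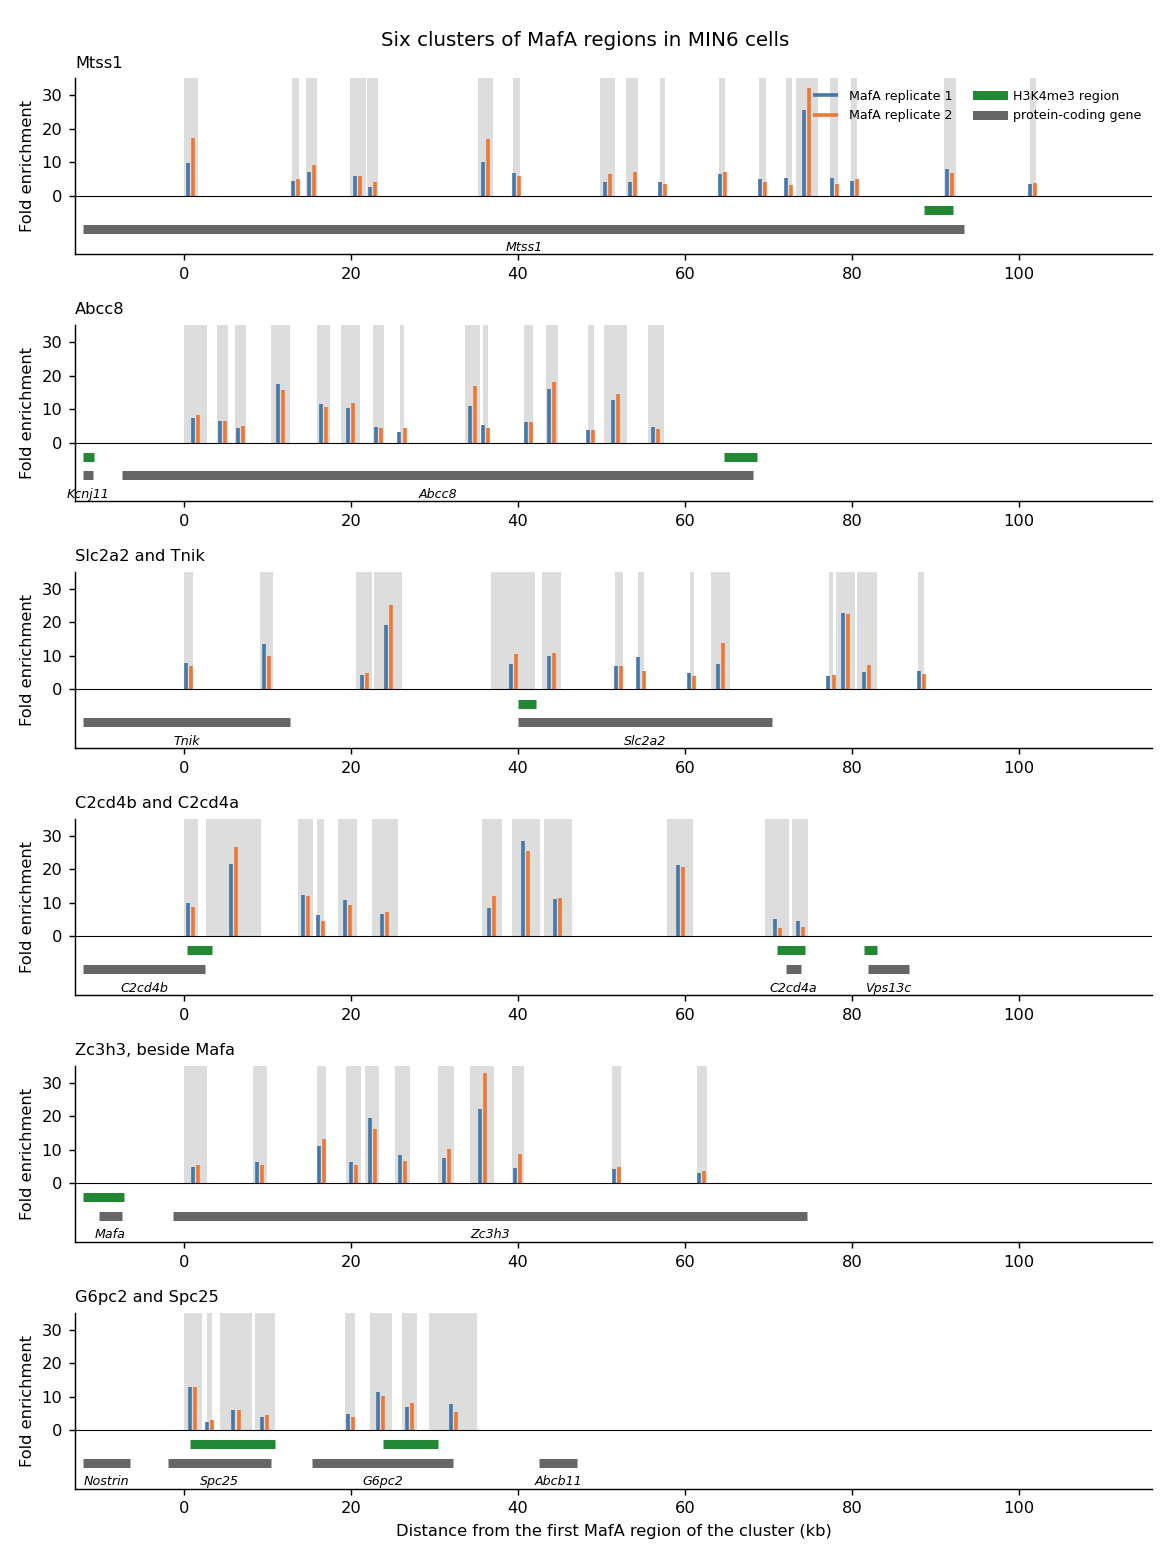
Maps of 6 clusters, with distance in kb from the start of the first MafA region on the x axis and fold enrichment on the y axis. Grey bands are the MafA regions, blue and orange lines the values in MafA replicates 1 and 2, green bars H3K4me3 regions and grey bars protein-coding genes, both cut 12 kb outside the cluster. At Mtss1 the strongest of 18 regions has 25.7 and 32.1, at Abcc8 all 15 regions lie inside the gene and away from H3K4me3, and at G6pc2 nearly all regions lie over H3K4me3.

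The other clusters among the 10 with the most regions, with ties broken by summed fold enrichment, lay at genes of varied function. A chain of 14 at Idh2, the mitochondrial isocitrate dehydrogenase, and the zinc finger gene Zfp710 summed to 102 and 128. Gng12, a G protein gamma subunit gene, held 13 regions with sums of 84.6 and 83.8 and no H3K4me3 overlap. Pbx3, a homeodomain cofactor gene, held 12 regions with sums of 79.3 and 93.3. The lipase gene Abhd2 and the cadherin gene Cdh4 held 11 each, with sums of 110 and 115 at Abhd2 and 89.1 and 97.6 at Cdh4. A further cluster of 11 regions, at Irf2bp2, summed to 68.3 and 75.4 and fell outside the 10 by that tie. Few regions could also give a high sum. The cluster of 8 regions that ended 4698 bp from Tbx19, a T-box factor gene, summed to 123 and 137. Its strongest region, 52.8 kb from the nearest gene end, reached 36.0 and 41.6. No cluster was left there with a gap of 5 kb. At the sodium-glucose cotransporter family gene Slc5a10 and at Fam83g, 9 regions summed to 107 and 117.

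Both H3c6 and H2ac12, whose clusters were with G6pc2 the 3 with the most H3K4me3 overlap, lie in a histone gene array on chromosome 13. All 8 regions of the cluster at H3c6, which overlapped 14 histone genes, overlapped H3K4me3, in 10 separate H3K4me3 regions. So did 6 of the 8 regions at H2ac12. Their MafA signal was modest for their size, with sums of 42.4 and 46.1 at H3c6 and 38.6 and 41.1 at H2ac12. The H3c6 cluster was also lost with a gap of 5 kb. Histone genes have near-identical copies, so reads there may have been split or shared between copies by the alignment, which was not tested.

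Beta cell genes were examined through 3 lists of 24 genes each. A gene was counted when a cluster overlapped it or lay within 10 kb. By this measure 1521 of 21627 protein-coding genes, 7.03%, had a cluster, and 33 of the 72 beta cell genes did, or 45.8% (34.8 to 57.3%). Another 33 beta cell genes had MafA regions but no cluster, and 6 had no region within 10 kb. Counting only clusters that overlapped the gene gave 32 of 72 beta cell genes and 5.63% of all genes, and a window of 50 kb gave 42 of 72 and 12.7%. Any MafA region in or within 10 kb was found at 44.6% of all genes and at 91.7% of the beta cell genes. With a gap of 5 kb the counts were 20 of 72 beta cell genes (27.8%) and 2.51% of all genes, and with equal numbers of the strongest peaks from each MafA list 18 of 72 and 3.13%. These lists were chosen with earlier results on these data known, and the counts describe them without a test.

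Among transcription factors, 10 of 24 genes had a cluster. Pdx1, a factor needed for pancreas development and insulin transcription, had 4 regions with sums of 36.2 and 45.2. Its strongest region, at 21.6 ± 4.84 (SD, n = 2) fold enrichment, covered the promoter, and its summits lay at -2263 and -2265 from the start. Bach2, a transcriptional repressor, had 3 separate clusters inside the gene, and the strongest of them had 4 regions and sums of 48.9 and 56.2. Glis3, a zinc finger activator of insulin, also had 3, the largest with 6 weak regions summing to 16.5 and 19.5. Pax6 had 6 regions (23.2 and 27.6), Etv1 had 4 (27.1 and 30.6) and Isl1 had 3 (16.1 and 18.7). Clusters also lay at Rfx3 and Myt1, besides Mafa. With a gap of 5 kb no cluster was left in place of those at Isl1 and Rfx3 or of the strongest one at Bach2. At a −log10 q of 5 or more this held for Pax6, Isl1 and the largest cluster at Glis3, and with 50% reciprocal overlap for Pax6, Isl1, Etv1 and Rfx3. Neurod1, Nkx2-2, Nkx6-1, Foxa2 and Rfx6 had 1 or 2 regions each within 10 kb and no cluster, and Insm1, Hnf4a, Foxa1 and Tcf7l2 had none.

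Hormone and secretory granule genes had the highest count, 14 of 24. The insulin gene Ins2 lay in a 5-region cluster with Igf2 that summed to 38.8 and 44.1. Its strongest region, at 14.9 and 20.8, overlapped Ins2 itself. Iapp, which encodes islet amyloid polypeptide, lay in a 4-region cluster inside Slco1a5, with sums of 33.1 and 45.8. Chga, which encodes the granule protein chromogranin A, had 8 regions in a cluster that reached Itpk1, with sums of 63.6 and 70.6. The prohormone-processing enzymes differed. Carboxypeptidase E (Cpe) had 5 regions summing to 47.3 and 55.4 in one of its 2 clusters, and Pcsk2 had 6 regions summing to 32.0 and 35.4 in one of its 2, while Pcsk1 had no region within 10 kb. Secretogranin genes Scg2, Scg3 and Scg5 each had a cluster, as did the exocytosis genes Snap25, Syt7, Rab3a and Rab27a. A gap of 5 kb left no cluster in place of those at Iapp, Scg2, Scg5, Syt7 and Rab3a, and those at Scg2 and Rab3a were also lost at a −log10 q of 5 or more and with 50% reciprocal overlap. Ins1, Slc30a8 and Vamp2 had 2 regions each and no cluster, and Ptprn2 had 8 regions and no cluster.

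Of the genes for glucose sensing and excitation, 9 of 24 had a cluster and all 24 had at least 1 MafA region within 10 kb. Besides Abcc8 and Slc2a2, these included the adrenergic receptor gene Adra2a, which had 3 regions summing to 29.5 and 31.1, most of it in one region at 21.9 and 21.6. Trpm5, a calcium-activated cation channel gene, had 4 regions summing to 30.8 and 35.3. Irs2 and Igf1r, which act in insulin and IGF signalling, had 2 clusters each, and Cacna1a and Galr1 had 1 each. With a gap of 5 kb the clusters at Trpm5, Cacna1a, Igf1r and Irs2 were lost, and with 50% reciprocal overlap both at Irs2 and 1 of the 2 at Igf1r. Many regions did not by themselves make a cluster: Cacna1c, a calcium channel gene, had 17 regions within 10 kb, none of them in a cluster.

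**Figure D3:**
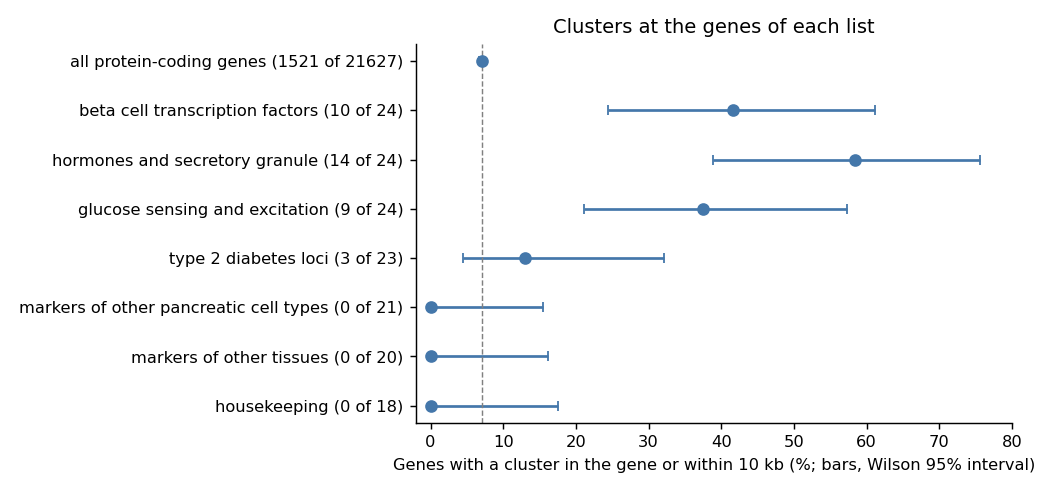
Share of the genes of each list with a cluster in the gene or within 10 kb, in percent, with 95% Wilson intervals, counts beside the names and a dashed line at the share of all protein-coding genes. The 3 beta cell lists lie between 37.5% and 58.3%, and the lists of other pancreatic cell types, other tissues and housekeeping genes are at 0.

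None of the 59 genes of the 3 comparison lists had a cluster: 0 of 21 markers of other pancreatic cells, 0 of 20 markers of other tissues and 0 of 18 housekeeping genes. The upper Wilson bounds were 15.5%, 16.1% and 17.6%, so shares like the 7.03% of all genes remain within these intervals. For the 59 together the bound was 6.11%, below that share but above the 3.85% of genes below 10 kb in length. A window of 50 kb gave 4 of 59 (6.78%), against 12.7% of all genes. Their median length was 7.88 kb, against 17.3 kb for all genes and 41.4 kb for the beta cell genes. H3K4me3 lay at an end of 24 of the 59, namely 5 of 21, 2 of 20 and 17 of 18 in the order above. It lay at an end of 12209 of all 21627 protein-coding genes and of 59 of the 72 beta cell genes. The part of length and of the mark in these counts was not tested. Housekeeping genes did carry MafA regions, at 13 of 18, close to the share at type 2 diabetes loci, 17 of 23. Of those 23 loci, 3 had a cluster, namely Cdkal1, Ptprd and Zfand6, and the interval of 4.54 to 32.1% covers the share of all genes.

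Long genes offer more room for a cluster, and H3K4me3 marks genes with an active promoter. Among all protein-coding genes the share with a cluster was 3.85% below 10 kb in length, 5.76% from 10 to 30 kb, 7.87% from 30 to 100 kb and 18.8% at 100 kb or more. For the beta cell genes in the same bands it was 7 of 19, 8 of 14, 11 of 21 and 7 of 18. The share thus rose with length for all genes but not for the beta cell genes, which were above all genes in each band. Of 12209 genes with H3K4me3 at a gene end, 10.1% had a cluster, against 31 of 59 such beta cell genes (52.5%).

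The 43 clusters at beta cell genes were somewhat larger than the rest. Their median was 4 regions, and 23 (53.5%) held 4 or more, against 39.5% of the 1483 other clusters. Median summed fold enrichment was 25.1 and 29.1 in replicates 1 and 2, against 22.8 and 24.9 for the others. A MafA region overlapping H3K4me3 was found in 25 of the 43 (58.1%) and in 45.1% of the others. A longer cluster has more room to come within 10 kb of a gene, and the part of this in the difference was not tested.

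Single regions in clusters were only slightly stronger than isolated ones. Median fold enrichment in replicates 1 and 2 was 5.66 and 6.09 in clusters and 5.42 and 5.89 among isolated regions. The difference was smaller still for regions without H3K4me3, at 5.93 and 6.41 against 5.82 and 6.38. Recovered fragments at the summit had medians of 32 and 68 in clusters and 28 and 59 among isolated regions, while the background there was 4.21 and 7.0 against 3.81 and 6.0. Signal and background were thus both higher in clusters, and the part of the background in the spacing of called peaks was not tested. In replicate 2 the fragments are counted before scaling by 0.746 and the background after it, so their ratio is not the fold enrichment. Regions in clusters were also wider, with a median of 1005 bp against 878 bp.

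Strong regions were somewhat more frequent in clusters. The 90th percentile of mean fold enrichment over all regions was 11.9, which 10% of all regions reached by construction. It was reached by 12.52% of regions in clusters (11.69 to 13.4%) and by 8.60% of isolated regions (8.14 to 9.08%). These intervals treat regions as independent, although all come from the same 2 libraries, so they are too narrow and serve as no test. Of the clusters, 945 (61.9%) contained no such region, 581 (38.1%) contained at least 1 and 115 contained 2 or more. The strongest region carried a median of 42.0% of a cluster's summed fold enrichment, with a range of 13.2 to 82.2%. In the 255 clusters of 5 or more regions the strongest was an end of the chain in 28.2% of cases, where ends made up on average 34.2% of the regions.

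**Figure D4:**
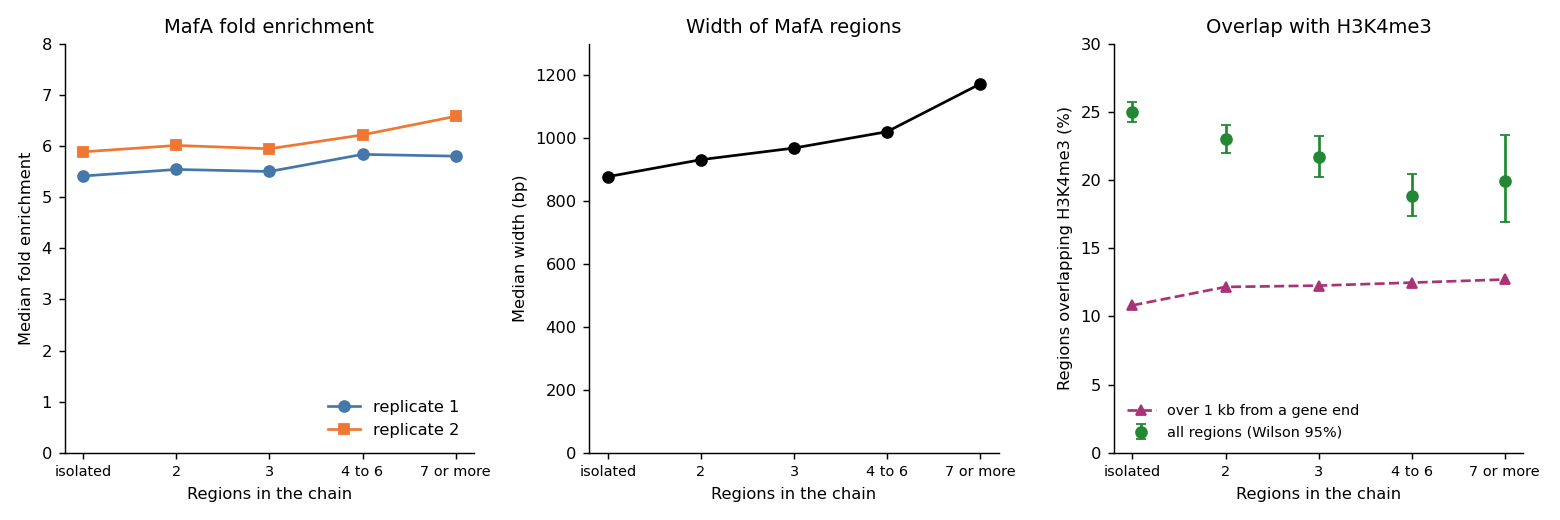
MafA regions by the number of regions in their chain, from isolated regions to clusters of 7 or more. The panels show median fold enrichment in each MafA replicate, median width in bp, and the percent of regions overlapping H3K4me3, with 95% Wilson intervals for all regions and triangles for regions over 1 kb from a gene end. Width rises from 878 bp to 1173 bp, and the overlap with H3K4me3 for all regions falls from 24.98% to 18.9% in clusters of 4 to 6 and is 19.9% in those of 7 or more, while for regions away from gene ends it does not fall.

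H3K4me3 was measured with a different antibody in other libraries and was not used to choose the clusters. It was found in the span of 712 clusters (46.7%), and at 724 and 750 with the peaks of H3K4me3 replicates 1 and 2 alone. Of all MafA regions 23.5% overlapped an H3K4me3 region. The share was 20.3% in clusters (19.3 to 21.4%) and 24.98% among isolated regions (24.3 to 25.7%). The order was the opposite over 1 kb from a gene end, where the overlap was 12.4% in clusters and 10.8% among isolated regions. Within 1 kb of a gene end it was 81.1% and 88.5%. With chains of MafA replicate 2 peaks alone, the overlap in clusters minus that of isolated peaks was -2.83 percentage points, and with replicate 1 alone -2.06, against -4.65 for both. These intervals treat regions as independent, although neighbours in a cluster can share 1 H3K4me3 region, so they are too narrow.

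H3K4me3 peaks at clusters were broad at gene ends and weak elsewhere. Within 1 kb of a gene end, peaks that overlapped a cluster region had median widths of 2509 and 2480 bp in H3K4me3 replicates 1 and 2. Those over isolated MafA regions had 2149 and 2140 bp, and those over no MafA region 1854 and 1866 bp. Their median fold enrichment was alike, at 18.4 and 16.7 over cluster regions, 18.2 and 16.6 over isolated regions and 17.8 and 16.0 over none. Farther from gene ends, peaks over cluster regions had lower fold enrichments, 5.47 and 5.06, than peaks over isolated regions, 6.72 and 6.34, or over none, 7.18 and 6.67. A wider peak has more room to overlap a MafA region, and its part in the widths was not tested.

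The 2 MafA libraries were then compared over the clusters. With peaks of one library alone and the same gap, 1497 clusters (98.1%) overlapped a chain of 3 or more peaks in replicate 1 and 1521 (99.7%) one in replicate 2. The rule itself asks for a peak of each library in every region, which nearly fixes these shares. The reverse did not hold, since 62.9% of the 2377 chains of replicate 1 alone and 42.1% of the 3552 of replicate 2 alone held a cluster. Summed fold enrichment was higher in replicate 2 at 1115 of 1526 clusters, by a median of 0.13 on the log2 scale. Across clusters the sums of the libraries had a Spearman correlation of 0.939, in which the shared number of regions takes part. The same region was the strongest in both libraries in 1134 clusters (74.3%).

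**Figure D5:**
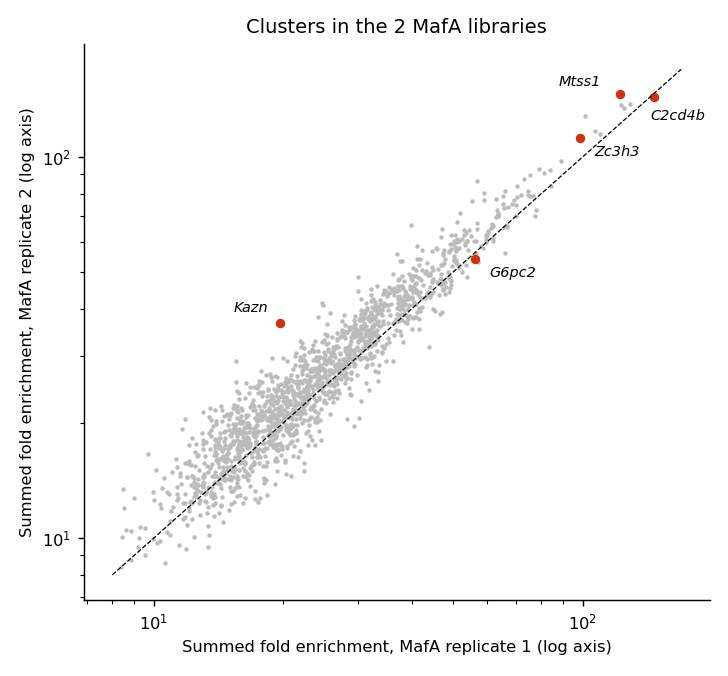
Summed fold enrichment of each of the 1526 clusters in MafA replicate 1 (x axis) and replicate 2 (y axis), both log axes, with the line of equal values dashed and 5 clusters named. Most points lie close to and above the line, and Kazn lies far above it.

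Clusters with the largest log2 ratios between the sums of the 2 libraries were a 3-region cluster inside Pcsk2, a 4-region cluster 101825 bp from Kazn and a 3-region cluster inside Wdr7. They summed to 15.5 and 29.2 at Pcsk2, 19.7 and 36.7 at Kazn, and 11.8 and 20.5 at Wdr7. Differences in the sums themselves were larger at bigger clusters, such as 102 and 128 at Idh2. At Pcsk2, Kazn and Wdr7 replicate 2 was the higher, and at Pcsk2 most of the difference came from one region, with fold enrichments of 3.77 and 15.9. These 3 clusters were lost with a gap of 5 kb. The well-filled clusters at C2cd4b and Gng12 differed little, by -0.03 and -0.01 on the log2 scale.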

How the data were processed

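The members, gene lists and naming rule were chosen with earlier results of these data known. Cells (500000 per sample, 0.01% digitonin, 150 bp paired reads, per the labels) gave 1 MACS2 narrowPeak list per MafA and H3K4me3 library. MACS2 and GRCm38 (mm10) are named in the submitters' processing notes. The aligner, duplicate handling and control library are not given in the sources used here. Fold enrichment, as deposited, is a linear ratio with a pseudocount of 1, and the authors also deposited −log10 p-values and −log10 q-values. The deposited score was not used.

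Overlap meant at least 1 bp. A region took the strongest peak of each list, and summed fold enrichment adds these over a cluster. Fragments and background were solved from fold enrichment and p, within a tolerance of 0.0001 on −log10 p, for 100% of MafA replicate 1 peaks (scaling factor 1) and 99.99% of replicate 2 peaks (factor 0.746). The 95% Wilson intervals reflect only counting error. Gene names and positions came from RefSeq GRCm38.p6. The table has no strand, so either gene end was used.

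Clusters were named in full when among the 10 with the most regions or highest sums, the 10 largest at beta cell genes, the 3 with most or no H3K4me3 overlap, those nearest the gap limit, or the 3 differing most between replicates. Others at beta cell genes are counted or given briefly, and a few are not reported here. Chains and fragment recovery were tested on simulated data. Calculations used scipy 1.17.1, pandas 2.3.3 and numpy 2.4.6 in Python 3.11.15, with matplotlib 3.10.9 for figures. A planned motif search at all summits was not run for lack of genome sequence.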

Additional observations from a re-analysis of the deposited data

How the results depend on the processing

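The number of clusters and the share of MafA regions in them followed the joining rule and list length. Clusters numbered 583 with a gap of 5 kb, 2449 with 25 kb, 609 with 4 or more regions required, 791 with equal numbers of the strongest peaks (25534 per list) and 921 with 50% reciprocal overlap. The share of regions in clusters was 7.63%, 41.5%, 11.6%, 15.6% and 16.2% in the same order, 18.8% at a −log10 q of 5 or more and 19.3% with regions within 1 kb merged. Clusters numbered 3552 without MafA replicate 1 (34.3% of regions) and 2377 without replicate 2 (28.4%). Of the 1526 clusters, 563 still overlapped a cluster at 5 kb, 782 with equal numbers and 912 with 50% reciprocal overlap.

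The log2 ratio of median fold enrichment in clusters to isolated regions, 0.0558, kept its sign. It was 0.0724 with 5 kb, 0.0986 with 4 or more regions, 0.0743 with equal numbers, 0.0916 with 50% overlap, 0.0724 with merging, 0.211 for −log10 q and 0.199 for recovered fragments, and 0.0387 to 0.0582 with a MafA library left out. The share of clusters with H3K4me3, 46.7%, was 38.1% with 5 kb, 58.4% with 25 kb, 51.4% with 4 or more regions, 32.4% with equal numbers, 43.1% with 50% overlap and 47.9% with merging, and 43.2 to 49.3% with a library left out. The H3K4me3 overlap in clusters minus isolated regions, -4.65 percentage points, stayed negative, at -3.99 with 5 kb, -2.36 with 25 kb, -5.91 with 4 or more regions and -5.46 with 50% overlap, and between -4.57 and -2.06 with a library left out.

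Beta cell genes with a cluster numbered 20 with 5 kb (27.8%, against 2.51% of all protein-coding genes), 21 with 4 or more regions (29.2% against 3.12%) and 18 with equal numbers (25% against 3.13%). With a MafA library left out the number was 40 to 48, against 9.94% to 15.8% of all genes. Why the values moved was not tested. Among the 57 clusters covered by the naming rule, 26 had no cluster left with 5 kb, 11 at a −log10 q of 5 or more and 17 with 50% overlap, G6pc2 among the last. Their sizes and sums moved in 81 of 458 comparisons, which leave out the cases with no cluster left. No paired analysis was possible because no result came from a test. A median of 25 fragments at MafA replicate 1 summits limits what the weaker regions can show.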

Other observations

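Clusters also lay at some microRNA genes with known roles in islets. Of 1005 microRNA hairpins in the RefSeq table, 60 (5.97%) had a cluster in or within 10 kb, and 31.2% had a MafA region. The same shares were 7.03% and 44.6% for all protein-coding genes, and 3.85% and 26.3% for those below 10 kb in length. A hairpin is shorter than most genes and offers less room, and the part of length was not tested. Mir375, an abundant microRNA gene of islets, lay inside a 4-region cluster at Cryba2, a lens crystallin gene (chr1:74892743-74902497). All 4 regions overlapped H3K4me3, and fold enrichment summed to 39.3 in replicate 1 and 42.6 in replicate 2. Mir7-2, which encodes the islet-enriched miR-7a, lay inside a 3-region cluster at Aen, an exonuclease gene (chr7:78878382-78890798), with sums of 18.9 and 23.2. The mature product of Mir7-2 is shown with the seed, bases 2 to 8, in capitals.
mmu-miR-7a-5p: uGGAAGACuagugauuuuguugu

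Mir7k, a let-7 family gene, lay 4984 bp from the Pdx1 cluster, and Mir483 lay 4259 bp from the cluster at Igf2 and Ins2. A cluster at Maff, which encodes a small MAF protein, held 6 regions with sums of 71.7 and 79.4, and 3 of the 6 overlapped H3K4me3. These genes were chosen after their values were seen, and the counts describe them without a test.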
